A study of Mus musculus with 12 samples.

Results

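Peroxisomes are small organelles bounded by a single membrane, and the genes described here encode the proteins that build them and the enzymes and transporters that work in them. The set holds 41 genes, named in a fixed list, of 19938 genes measured. Each was read by the 1 probe set that the platform annotation gives to that gene alone, so no choice among probe sets was needed. The set divides into 13 peroxins (Pex genes, the assembly factors) and 28 genes of metabolism and membrane transport.

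Peroxins insert membrane proteins, import enzymes that carry a short targeting signal, and divide the organelle. The matrix enzymes shorten very long and branched fatty acids by β- and α-oxidation, destroy the hydrogen peroxide that β-oxidation makes, and carry out the opening steps of ether lipid (plasmalogen) synthesis. Peroxisomes are known to multiply when fibroblasts become adipocytes, and several of their genes are known targets of the PPAR nuclear receptors.

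RNA from mouse embryonic fibroblasts of strain C57BL6, taken from embryos at day 14 (E14), was measured on single-colour arrays in 12 samples, 3 in each of 4 groups. Cells were wild type (WT) or D1D2KO, which are deficient in the triacylglycerol-forming enzymes DGAT1 and DGAT2, and both were sampled either as fibroblasts (undifferentiated) or converted to adipocytes (differentiated). All cells were grown in medium with 10% serum. For conversion, cells held at confluence for 2 days received insulin (5 µg/ml), troglitazone (15 µM), a PPARγ agonist,, dexamethasone (1 µM) and isobutylmethylxanthine (500 µM) for 2 to 3 days, then insulin and troglitazone for 2 days, then plain medium. The labels name no allele and no embryo or culture of origin, so the p-values reflect only how far these samples spread, which may be technical. The number of arrays limits the precision.

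Signals are on the log2 scale, where a difference of 1 is 2-fold, and are compared within a probe set only. Array medians lay between 5.61 and 5.69 and lower quartiles between 4.10 and 4.26. Every Dgat1 and Dgat2 signal was lower in D1D2KO than in WT samples of the same state, at 39.4% (Dgat1) and 72.0% (Dgat2) of WT before and 38.2% and 31.4% after differentiation. Both still rose when D1D2KO cells differentiated, Dgat1 by 2.41 and Dgat2 by 3.07, to means of 8.02 and 8.55, above those of undifferentiated WT cells (6.95 and 5.96). Where their probe sets lie relative to the deleted sequence is not given in the sources used here. The summed signal of 7 measured adipocyte markers was 8.75 to 8.81 in undifferentiated WT, 13.81 to 13.97 in differentiated WT, 8.35 to 8.47 in undifferentiated D1D2KO and 14.09 to 14.31 in differentiated D1D2KO samples (log2), and all 7 rose in both genotypes. That of 9 fibroblast markers was 14.94 to 14.97, 14.33 to 14.45, 14.95 to 15.00 and 13.99 to 14.15 in the same order. Of the fibroblast markers 8 fell in WT and 9 in D1D2KO cells. Macrophage markers were also present, and 6 of 7 fell in each genotype, while Cd68 did not pass (summed signal 12.72 to 12.79, 11.41 to 11.62, 12.68 to 12.78 and 11.38 to 11.42). Of 5 measured hepatocyte markers 1 rose in each genotype, the albumin gene Alb, by 0.98 in WT and 0.39 in D1D2KO cells, to signals of at most 5.09. Of 7 brown adipocyte markers 5 rose and 1 fell in each genotype, and 4 were higher in differentiated D1D2KO than in WT cells.

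The stretches upstream of 7 members are shown because they carry the letters searched for and belong to genes on which the results turn. They come from RefSeq promoter windows on build GRCm38.p6, each running from 250 bases before to 50 bases after a start, and 33 of the 41 members had one. Capitals mark AGGTCA, the half-site letters of nuclear receptors such as the PPARs, or GGGCGG, the GC box. Both strands were searched, and each stretch is given 5′ to 3′ on the strand of its gene.
Cat (chr2:103485313-103485372, minus strand): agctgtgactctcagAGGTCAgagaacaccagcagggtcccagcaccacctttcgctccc
Scp2 (chr4:108118612-108118671, minus strand): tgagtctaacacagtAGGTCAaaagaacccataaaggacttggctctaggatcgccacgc
Pex11g (chr8:3467777-3467836, minus strand): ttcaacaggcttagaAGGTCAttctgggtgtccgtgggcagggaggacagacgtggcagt
Pex16 (chr2:92374581-92374640, plus strand): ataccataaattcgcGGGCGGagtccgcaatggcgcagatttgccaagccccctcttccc
Pex13 (chr11:23665909-23665968, minus strand): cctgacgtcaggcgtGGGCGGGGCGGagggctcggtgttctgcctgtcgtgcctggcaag
Ech1 (chr7:28825237-28825296, plus strand): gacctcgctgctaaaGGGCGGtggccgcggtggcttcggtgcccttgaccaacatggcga
Agps (chr2:75832093-75832152, plus strand): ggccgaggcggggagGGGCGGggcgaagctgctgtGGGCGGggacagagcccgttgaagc
The half-site begins 204 bases before the start of Cat, 109 before that of Scp2 and 173 before that of Pex11g. The GC box begins 80 bases before the start of Pex16, 70 before that of Pex13, 86 before that of Ech1 and 69 before that of Agps. In Pex13 a pair of GC boxes overlap.

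The half-site was found in 4 of the 33 member windows (12.1%; Pex11g, Cat, Phyh and Scp2), against 16.3% of the 15614 tested genes with a window. Its direct repeat, AGGTCA followed after 1 base by AGGTCA, was in 0 of 33 member windows and in 0.0512% of those of tested genes. With up to 2 mismatches it was in 1 member window, that of Cat, which is 3.03% against 3.98%. The GC box was in 25 of 33 (75.8%), against 52.9%, and CCAAT in 15 (45.5%), against 41.7%. These are matches of letters in a short window, and binding was not measured.

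Differentiation of WT cells was examined first. Of the 41 peroxisomal genes 31 rose, 2 fell and 8 did not pass the test (limma, Benjamini-Hochberg adjusted p under 0.05 over all 19938 genes). Among all genes 14.7% rose and 19.4% fell. The median difference was 0.70 for the members and 0.02 for all genes, and 18 members rose by 2-fold or more. The rise spanned both branches of the set, with 10 of 13 peroxins (median 0.60) and 21 of the 28 other genes (median 1.13). In a culture of mixed cells, fewer cells of a type and less RNA per cell cannot be told apart, and the part of the marker shifts given above in these results was not tested. Only differentiated samples of either genotype received insulin, troglitazone, dexamethasone and isobutylmethylxanthine. Direct effects of these compounds and conversion itself therefore cannot be told apart.

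In D1D2KO cells 33 members rose, 2 fell and 6 did not pass the test, against 15.4% of all genes that rose and 21.2% that fell. The median difference was 1.06 for the members and 0.01 for all genes, and 22 members rose by 2-fold or more. The 31 genes that rose in WT all rose in D1D2KO cells too, and the 2 that fell were the same. Pex5 and Decr2 passed the test in D1D2KO cells and not in WT, a contrast for which the difference itself did not pass (limma, adjusted p = 0.800 and 0.955). Across the 41 members the WT and D1D2KO differences correlated with a Pearson r of 0.985 and a Spearman rho of 0.980, given as a description of genes that share the same arrays.

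**Figure D1:**
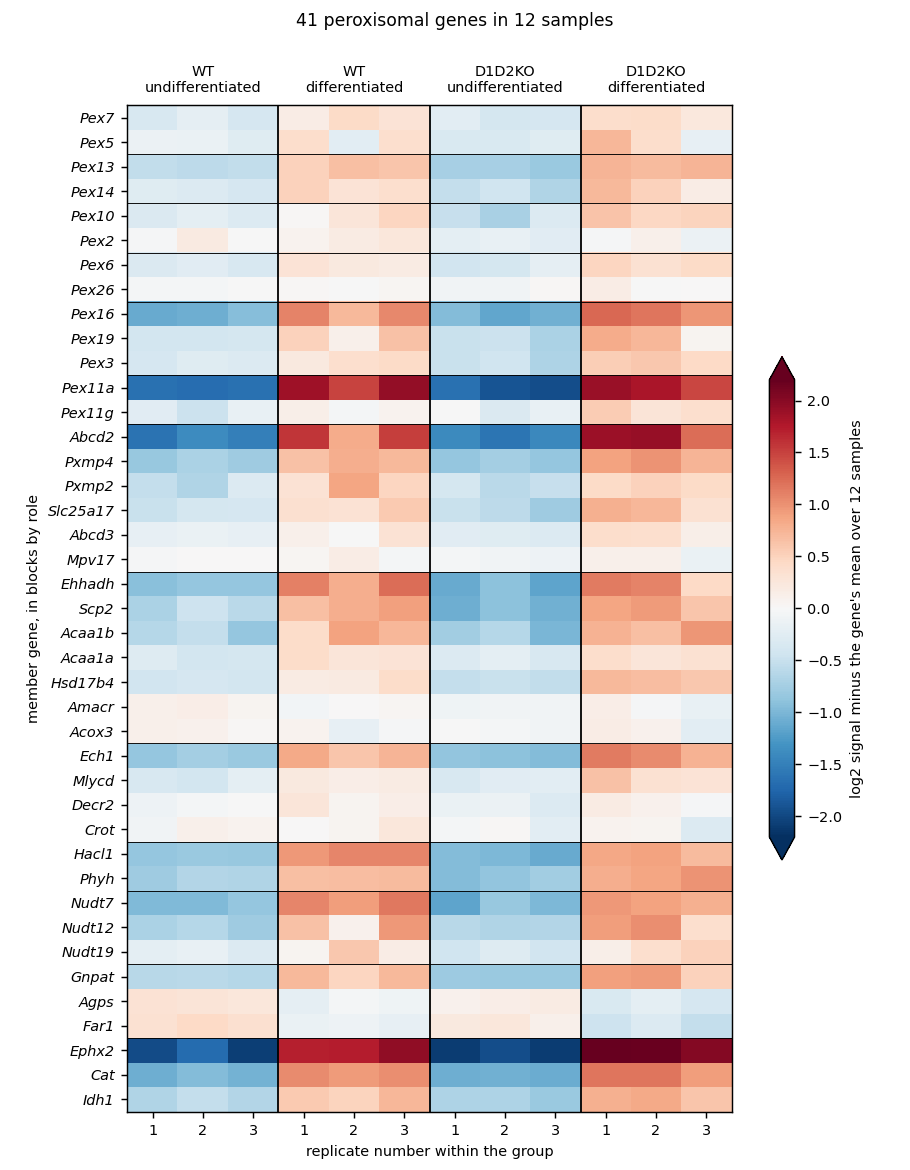
Signal of each of the 41 peroxisomal genes (rows, in blocks by role) in each of the 12 samples (columns, by group and replicate number), as the log2 signal minus the gene's own mean over 12 samples (colour). Most rows turn from blue to red between undifferentiated and differentiated samples in both genotypes, while Agps and Far1 turn the other way.

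**Figure D2:**
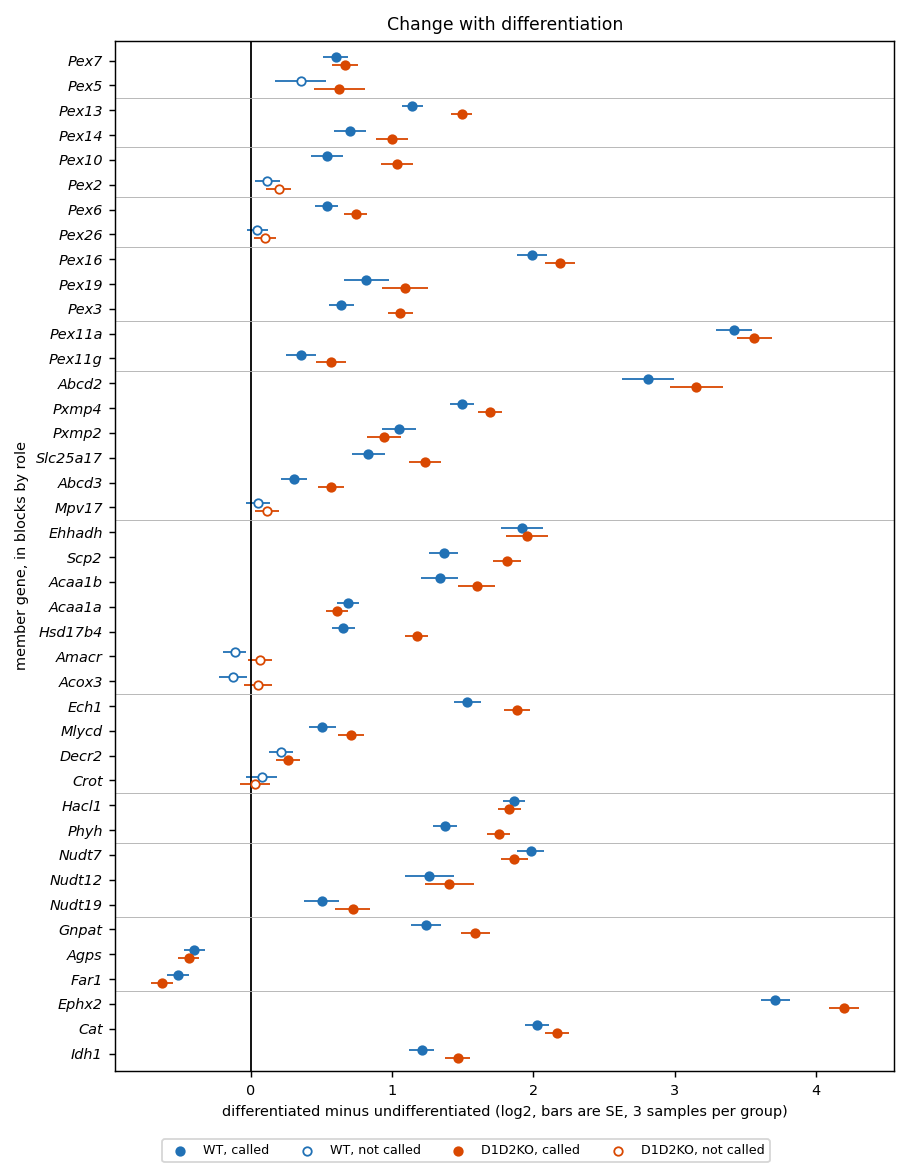
Differentiated minus undifferentiated log2 signal of each member (rows, in blocks by role) in WT (blue) and D1D2KO (orange), with the SE of the limma fit as bars, 3 samples per group, and filled points for genes called at an adjusted p under 0.05. Ephx2 and Pex11a lie farthest to the right, at 3.71 and 3.42 in WT, and Agps and Far1 are the called genes left of 0.

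The largest change of a peroxin was that of Pex11a, whose product elongates the peroxisomal membrane before division. Pex11a read 5.18, 5.15 and 5.18 in undifferentiated and 8.69, 8.31 and 8.75 in differentiated WT samples. In D1D2KO cells it read 5.17, 4.92 and 4.86 before and 8.72, 8.62 and 8.30 after. The states were thus separated by more than 3 log2 units in either genotype, and the 2 genotypes overlapped in each state. The difference was 3.42 in WT (SE 0.12, 10.7-fold; limma, adjusted p = 1.71e-12) and 3.56 in D1D2KO cells (SE 0.12, 11.8-fold; adjusted p = 6.22e-13). Pex11g, a related division factor, rose far less, by 0.36 in WT (SE 0.11; limma, adjusted p = 0.0139) and 0.57 in D1D2KO cells (adjusted p = 0.000302). Its call in WT ended without undifferentiated replicate 2 (limma, adjusted p = 0.0887) or differentiated replicate 1 (adjusted p = 0.0521).

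All 3 genes of membrane assembly rose. Pex16, which brings new membrane proteins to the organelle, read 6.89, 6.92 and 7.05 in undifferentiated and 9.08, 8.70 and 9.05 in differentiated WT samples. It read 7.04, 6.85 and 6.94 before and 9.26, 9.17 and 8.96 after differentiation of D1D2KO cells. The states did not overlap, and the rise was 1.99 in WT (SE 0.11, 3.97-fold) and 2.19 in D1D2KO cells (4.55-fold). Pex3, the membrane receptor for the carrier of new membrane proteins, rose by 0.64 and 1.06, and that carrier, Pex19, by 0.82 and 1.09 (in WT and in D1D2KO). Pex19 was uneven among differentiated samples, with 9.25, 8.85 and 9.39 in WT and 9.57, 9.48 and 8.81 in D1D2KO.

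The import machinery rose in part. Pex13, which forms the docking site of the import receptors together with Pex14, read 7.67, 7.62 and 7.66 in undifferentiated and 8.71, 8.86 and 8.81 in differentiated WT samples. In D1D2KO cells Pex13 read 7.47, 7.47 and 7.38 before and 8.94, 8.90 and 8.95 after. Replicates lay close together, so the rises of 1.14 (SE 0.07, 2.21-fold) and 1.49 (2.81-fold) were many times their error. Pex14 rose by 0.70 (WT) and 1.00 (D1D2KO). Pex7, the receptor for enzymes with the second type of targeting signal, went from 7.60, 7.75 and 7.57 to 8.10, 8.37 and 8.25 in WT and from 7.71, 7.56 and 7.57 to 8.34, 8.34 and 8.17 in D1D2KO cells. These rises of 0.60 and 0.67 left no overlap between states. Pex5, the receptor for the commoner signal, was the most variable member in differentiated D1D2KO cells, at 8.28, 7.93 and 7.37, and in WT it read 7.94, 7.32 and 7.92 after against 7.43, 7.41 and 7.29 before. WT replicate 2 thus lay among the undifferentiated samples. The Pex5 difference of 0.36 in WT did not pass (SE 0.18; limma, adjusted p = 0.148), and that of 0.63 in D1D2KO cells did (adjusted p = 0.0105), though not without D1D2KO differentiated replicate 1 (adjusted p = 0.0736). In WT Pex5 passed with array weights and without differentiated replicate 2.

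Of the ubiquitin ligase ring that recycles the receptors, Pex10 read 5.65, 5.75 and 5.67 before and 6.00, 6.23 and 6.44 after differentiation in WT. In D1D2KO cells Pex10 read 5.46, 5.26 and 5.66 before and 6.60, 6.43 and 6.46 after. Its states did not overlap, and it rose by 0.54 (WT) and 1.03 (D1D2KO). Pex2, another member of that ring, stayed between 6.62 and 7.11 in all 12 samples, and its differences of 0.12 and 0.20 did not pass. Pex6, an ATPase that pulls receptors out of the membrane, went from 6.45, 6.53 and 6.42 to 7.07, 6.98 and 6.95 in WT and from 6.35, 6.38 and 6.56 to 7.24, 7.10 and 7.18 in D1D2KO cells. All differentiated samples were higher, with rises of 0.54 and 0.74. Pex26, the anchor of that ATPase, read 5.47 to 5.71 in all samples, with differences of 0.05 and 0.10 that did not pass. The export and ring groups were therefore each split between a called and an uncalled gene in both genotypes. The split of the ring in D1D2KO cells was not firm. There Pex2 passed after quantile normalization, among genes above the median signal, with array weights and without differentiated replicate 3.

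Among membrane transporters the largest rise was that of Abcd2, which carries very long-chain acyl-CoA into the organelle. Abcd2 read 6.52, 6.76 and 6.63 in undifferentiated and 9.72, 8.96 and 9.66 in differentiated WT samples. In D1D2KO cells it read 6.74, 6.54 and 6.72 before and 10.03, 10.06 and 9.37 after. The lowest differentiated sample lay more than 2 units above the highest undifferentiated one in both genotypes. The rise was 2.81 (SE 0.18, 7.01-fold; limma, adjusted p = 2.78e-09) in WT and 3.15 (8.89-fold; adjusted p = 4.29e-10) in D1D2KO cells. Abcd3, the abundant transporter PMP70, rose by only 0.31 in WT (limma, adjusted p = 0.0163, and 0.0941 without differentiated replicate 3) and by 0.57 in D1D2KO cells.

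Slc25a17, the carrier of coenzyme A and nucleotides, rose by 0.83 (WT) and 1.23 (D1D2KO). The membrane proteins Pxmp4 and Pxmp2 rose by 1.49 and 1.05 in WT and by 1.69 and 0.94 in D1D2KO cells. Mpv17, of the same protein family as Pxmp2, did not pass, with differences of 0.05 and 0.11 and signals of 8.14 to 8.43. In D1D2KO cells Mpv17 passed with array weights. It is counted here because the fixed list names it, and where its protein lies was not measured. Of the 6 membrane transport genes 5 rose in each genotype.

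In β-oxidation, 5 of 7 core enzymes rose in each genotype. Ehhadh, the L-bifunctional enzyme of the straight-chain pathway, read 5.29, 5.36 and 5.36 in undifferentiated and 7.31, 7.01 and 7.44 in differentiated WT samples. It read 5.09, 5.30 and 5.04 before and 7.34, 7.29 and 6.65 after differentiation of D1D2KO cells. The states were apart in both genotypes, with 1 D1D2KO sample below the rest, and the rises were 1.92 (SE 0.15, 3.78-fold) and 1.95 (3.87-fold). Scp2, whose gene gives a thiolase for branched chains and a sterol carrier, read 8.09, 8.34 and 8.20 before and 9.45, 9.59 and 9.69 after in WT. The Scp2 signals of D1D2KO cells were 7.72, 7.88 and 7.74 before and 9.66, 9.72 and 9.40 after. The genotypes were apart before and overlapped after differentiation, and Scp2 went up by 1.36 (SE 0.10, 2.57-fold) in WT and 1.81 (3.51-fold) in D1D2KO cells.

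Hsd17b4, the D-bifunctional enzyme that handles very long and branched chains, rose by 0.66 in WT (SE 0.08, 1.58-fold; limma, adjusted p = 4.59e-06) and 1.17 in D1D2KO cells (2.26-fold; adjusted p = 2.58e-09). The thiolase genes Acaa1a and Acaa1b rose by 0.68 and 1.34 in WT and by 0.61 and 1.60 in D1D2KO cells. They are near-identical copies, so their separate values are uncertain. Acox3, an oxidase of branched chains, and Amacr, which turns branched acyl-CoA into the form that β-oxidation accepts, did not pass. Acox3 differed by -0.12 in WT and 0.05 in D1D2KO cells, and Amacr by -0.11 and 0.07.

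Among the auxiliary enzymes Ech1, a dienoyl-CoA isomerase shared with mitochondria, rose most. It read 8.80, 8.89 and 8.83 before and 10.47, 10.26 and 10.39 after in WT. In D1D2KO cells Ech1 read 8.78, 8.75 and 8.70 before and 10.78, 10.68 and 10.41 after. No sample of one state came near the other, and the rises were 1.53 in WT (2.89-fold) and 1.88 in D1D2KO cells (3.69-fold). Mlycd, which removes malonyl-CoA, rose by 0.51 and 0.71. Decr2, a reductase for unsaturated chains, differed by 0.22 in WT (limma, adjusted p = 0.0626) and rose by 0.26 in D1D2KO cells (adjusted p = 0.0219). The Decr2 call ended without D1D2KO undifferentiated replicate 3 (limma, adjusted p = 0.110) or differentiated replicate 1 (0.0937) or 2 (0.0585). In WT Decr2 passed after quantile normalization, among genes above the median signal, with trended robust eBayes and with array weights. It also passed there without WT differentiated replicate 2 or D1D2KO differentiated replicate 3. Crot, which makes the carnitine esters that leave the organelle, differed by 0.08 and 0.03 and did not pass.

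Both α-oxidation enzymes rose. Hacl1, the lyase that cleaves the shortened chain, read 7.34, 7.37 and 7.36 in undifferentiated and 9.14, 9.26 and 9.26 in differentiated WT samples. In D1D2KO cells Hacl1 read 7.23, 7.19 and 7.09 before and 9.04, 9.08 and 8.88 after. In each state the 3 D1D2KO samples were all lower than the 3 WT samples, though neither genotype difference passed, and the rises were 1.86 (3.63-fold) and 1.83 (3.55-fold). The Hacl1 difference between differentiated genotypes did pass when only genes above the median signal were tested. Phyh, which hydroxylates phytanoyl-CoA, rose by 1.37 in WT (2.59-fold) and 1.75 in D1D2KO cells (3.37-fold).

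All 3 Nudix hydrolases, which cut coenzymes inside the organelle, rose. Nudt7, a coenzyme A hydrolase, read 6.63, 6.64 and 6.76 before and 8.68, 8.53 and 8.76 after differentiation in WT. In D1D2KO cells it read 6.44, 6.77 and 6.61 before and 8.55, 8.48 and 8.38 after. The states were well apart and the rise was 1.98 (3.95-fold) in WT and 1.86 (3.64-fold) in D1D2KO cells. Nudt12, which acts on nicotinamide coenzymes, rose by 1.26 and 1.40, with WT replicate 2 low at 6.67 against 7.23 and 7.52. Nudt19, another coenzyme A hydrolase, rose by 0.50 and 0.72.

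Of the genes of redox and detoxification all 3 rose, and Ephx2 had the largest change of any member. Ephx2, the soluble epoxide hydrolase, read 5.45, 5.71 and 5.34 in undifferentiated and 9.12, 9.14 and 9.36 in differentiated WT samples. In D1D2KO cells it read 5.32, 5.46 and 5.33 before and 9.68, 9.59 and 9.43 after. After differentiation every D1D2KO sample lay above every WT sample. The rise was 3.71 in WT (SE 0.10, 13.1-fold; limma, adjusted p = 5.55e-14) and 4.20 in D1D2KO cells (18.3-fold; adjusted p = 9.66e-15).

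Cat, the catalase that breaks down hydrogen peroxide, read 8.32, 8.46 and 8.36 before and 10.43, 10.35 and 10.43 after differentiation in WT. Cat read 8.33, 8.34 and 8.32 before and 10.59, 10.57 and 10.32 after in D1D2KO cells. The genotypes overlapped in both states, and the rises of 2.02 (4.07-fold) and 2.16 (4.48-fold) differed by 0.14 (SE 0.12, 95% interval -0.11 to 0.39), which did not pass (limma, adjusted p = 0.769). Idh1, which makes NADPH in cytosol and peroxisomes, rose by 1.21 (WT) and 1.46 (D1D2KO).

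The 3 ether lipid genes of the set moved in opposite directions. Gnpat, which attaches the opening acyl chain to dihydroxyacetone phosphate, read 8.30, 8.32 and 8.29 before and 9.61, 9.39 and 9.63 after in WT. Gnpat read 8.10, 8.09 and 8.10 before and 9.80, 9.85 and 9.41 after in D1D2KO cells. The states did not overlap, and it went up by 1.24 (SE 0.10, 2.36-fold) in WT and 1.59 (3.01-fold) in D1D2KO cells.

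Agps, which swaps that acyl chain for a fatty alcohol in the following step, fell. It read 8.14, 8.11 and 8.07 before and 7.63, 7.78 and 7.73 after in WT, and 7.93, 7.97 and 8.00 before and 7.49, 7.62 and 7.47 after in D1D2KO cells. The differences were -0.40 in WT (SE 0.08; limma, adjusted p = 0.000549) and -0.44 in D1D2KO cells (adjusted p = 0.000172). Far1, which makes the fatty alcohol, also fell, from 8.99, 9.09 and 9.00 to 8.50, 8.55 and 8.48 in WT. In D1D2KO cells Far1 went from 8.88, 8.91 and 8.77 to 8.19, 8.35 and 8.14. No differentiated sample of either gene reached an undifferentiated one of its genotype, and the Far1 differences were -0.52 (SE 0.08; limma, adjusted p = 6.7e-05) and -0.63 (adjusted p = 6.04e-06).

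**Figure D3:**
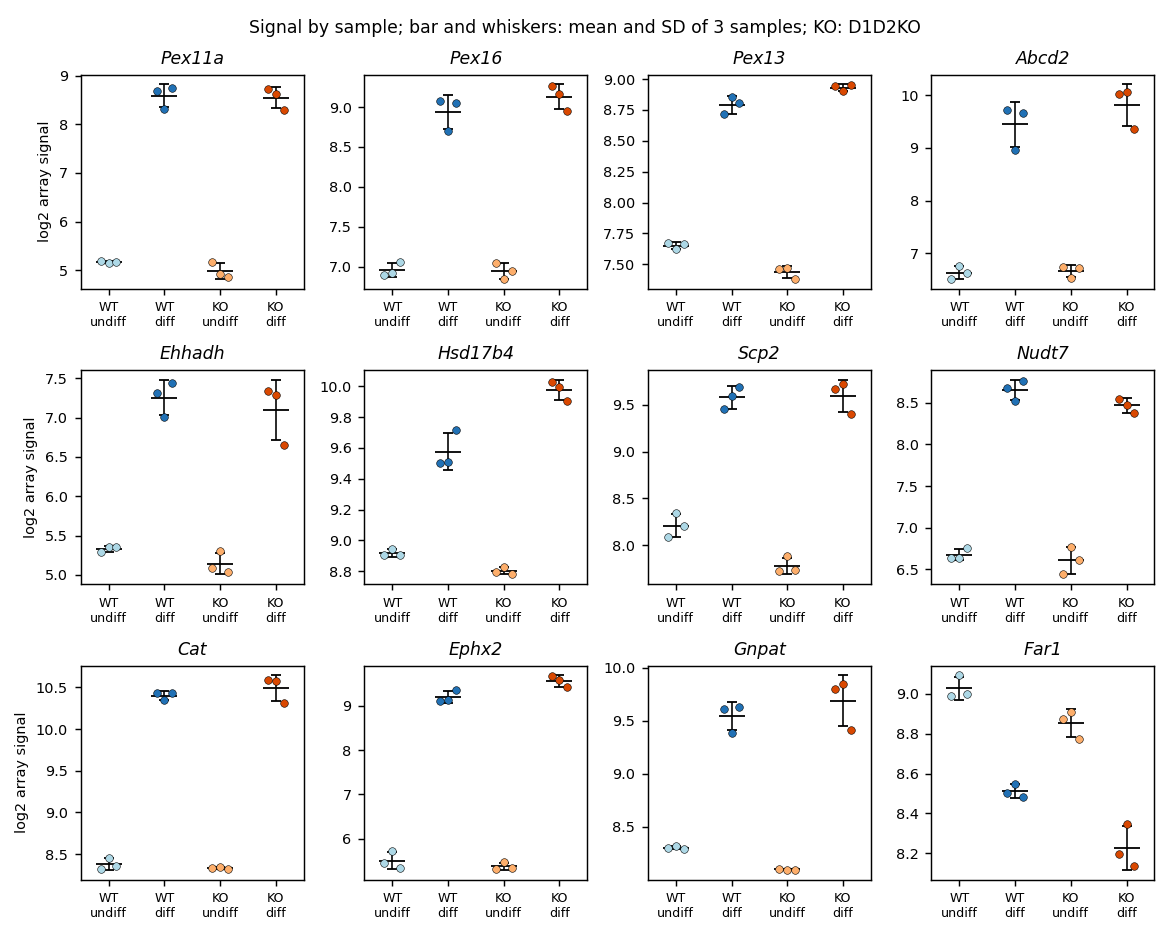
Log2 array signal of 12 members (panels, each with its own axis range) in the 3 samples of each group (points), with the mean as a bar and the SD as whiskers; KO is D1D2KO. Pex11a, Abcd2 and Ephx2 show the widest gaps between states, Far1 falls, and Hsd17b4 is higher in all 3 differentiated D1D2KO samples (9.90 to 10.03) than in WT (9.50 to 9.71).

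Replicates varied more after differentiation. The median SD over the 41 members was 0.0600 in undifferentiated and 0.121 in differentiated WT, and 0.0849 and 0.146 in D1D2KO. Among the 33 genes that rose in D1D2KO cells, differentiated replicate 3 was the lowest of its group for 24. That replicate had the lowest summed adipocyte signal (14.09, against 14.31 in both others) and also the lowest fibroblast sum (13.99, against 14.15 and 14.12). Its array median (5.69) and lower quartile (4.26) were the highest of all 12 samples. Among the 31 that rose in WT, replicate 2 was lowest for 17 and replicate 1 for 13. Their adipocyte sums were 13.81 and 13.82 against 13.97 in replicate 3, and their fibroblast sums 14.33 and 14.45 against 14.35. The part of the marker signals and of the array levels in these differences was not tested.

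The genotypes were then compared before differentiation. Of the 41 members 0 rose and 1 fell in D1D2KO cells (limma, adjusted p under 0.05), against 4.40% and 3.62% of all genes, and 7 (17.1%) had an unadjusted p under 0.05, where 27.7% of all genes did. The gene that fell was Scp2, by -0.43 (SE 0.10, 95% interval -0.64 to -0.22; limma, adjusted p = 0.0193), from the undifferentiated signals given above, in which all 3 D1D2KO samples were lower. That call ended without WT undifferentiated replicate 2 (limma, adjusted p = 0.110) or D1D2KO undifferentiated replicate 1 (0.0714) or 3 (0.0904).

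Small differences below the threshold ran mostly one way. The members' mean was lower in D1D2KO cells for 36 of 41, with a median of -0.13 against 0.02 for all genes. All 3 D1D2KO samples lay below all 3 WT samples for 20 members, and above for 0, where 19.6% and 19.7% of all genes did so. Brighter genes shared much of this tilt. Among the 9969 genes above the median signal, which include 38 of the members, the median was -0.08 and 34.0% were lower in all samples. The members' tilt depended on scaling. With each array centred on its median 26 members were lower in all samples and 0 higher, with medians of -0.17 for the members and -0.12 for the brighter genes, of which 46.7% were lower in all samples. After quantile normalization 11 members were lower in all samples and 1 higher, against 18.5% and 16.5% of the brighter genes, the medians were -0.06 and -0.01, and 32 of 41 members were negative.

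After differentiation 3 members were higher and 1 lower in D1D2KO than in WT cells (limma, adjusted p under 0.05), against 6.25% and 7.42% of all genes. With each array centred on its median 1 was higher and 1 lower, and after quantile normalization 4 and 0. The median was 0.12 for the members and 0.03 for all genes, and it was 0.04 without D1D2KO differentiated replicate 1. All 3 D1D2KO samples lay above WT for 8 members and below for 3, where 16.7% and 14.2% of all genes did. Among the brighter genes 8.42% were higher and 24.7% lower in all samples, with a median of -0.08. Adipocyte markers were higher (5 of 7 called) and fibroblast markers lower (5 of 9 called) in differentiated D1D2KO cells, and their part in these results was not tested.

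Hsd17b4 showed the firmest difference. It read 9.50, 9.51 and 9.71 in WT and 10.03, 10.00 and 9.90 in D1D2KO differentiated samples, so the groups did not overlap. The difference was 0.40 (SE 0.08, 1.32-fold; limma, adjusted p = 0.00383), and it passed without any 1 sample and under every other setting tried. Ephx2 was higher by 0.36 (SE 0.10; limma, adjusted p = 0.0342), again without overlap. Its call ended without replicate 1 or 2 of either differentiated group (limma, adjusted p from 0.0806 to 0.112), with array centring (0.0611) and with only the 2 groups compared (0.0685).

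Pex11g read 6.31, 6.14 and 6.26 in WT and 6.74, 6.46 and 6.54 in D1D2KO differentiated samples. These did not overlap, and the difference was 0.34 (SE 0.11; limma, adjusted p = 0.0401). The Pex11g call ended without any of 6 samples, WT undifferentiated replicate 1, WT differentiated replicates 2 and 3, D1D2KO undifferentiated replicate 3 and D1D2KO differentiated replicates 1 and 3 (limma, adjusted p from 0.0513 to 0.139). It also ended with array centring (limma, adjusted p = 0.0637), with only the 2 groups compared (0.0697) and with array weights (0.126). Far1 was lower by -0.29 (SE 0.08; limma, adjusted p = 0.0283), which failed without WT differentiated replicate 2 (0.0834) or D1D2KO differentiated replicate 1 (0.0714) or 3 (0.0831). The Far1 call also ended after quantile normalization (limma, adjusted p = 0.0792), with only the 2 groups compared (0.0990) and with array weights (0.106). Abcd2, with a difference of 0.37, did not pass (SE 0.18, 95% interval -0.02 to 0.76; limma, adjusted p = 0.178), though it did without D1D2KO differentiated replicate 3.

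**Figure D4:**
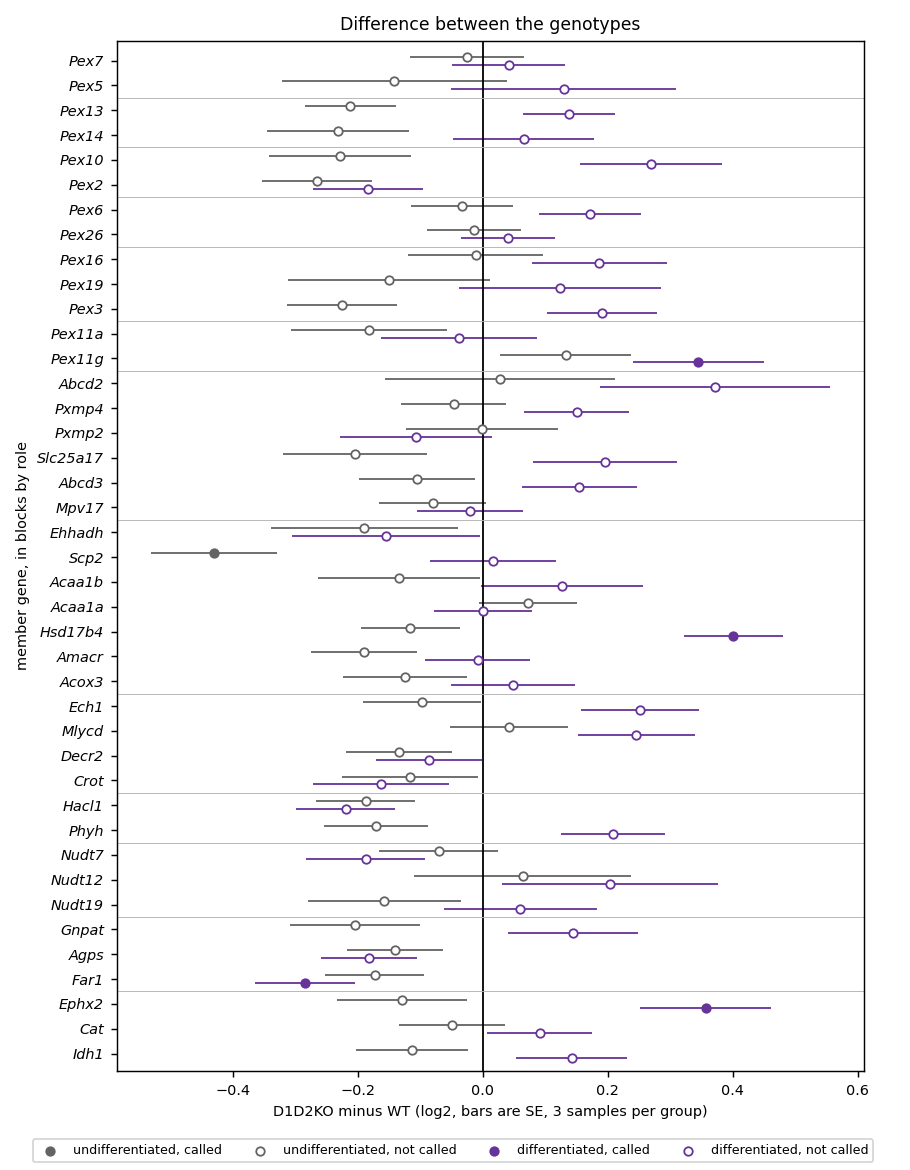
D1D2KO minus WT log2 signal of each member (rows, in blocks by role) in undifferentiated (grey) and differentiated (purple) cells, with the SE of the limma fit as bars, 3 samples per group, and filled points for genes called at an adjusted p under 0.05. Grey points lie left of 0 for 36 of 41 members and purple points right of 0 for 28, while 1 grey and 4 purple points are filled.

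Whether differentiation changed the members by a different amount in D1D2KO cells was tested as a difference of differences. It passed for 1 of 41 members in the positive direction and 0 in the negative (limma, adjusted p under 0.05), against 0.747% and 0.712% of all genes. The gene was Hsd17b4, which rose by 0.52 more in D1D2KO cells (SE 0.11, 95% interval 0.28 to 0.75; limma, adjusted p = 0.0290). The call held only without WT differentiated replicate 3 or D1D2KO differentiated replicate 3, and ended without each of the other 10 samples (limma, adjusted p from 0.0573 to 0.0820), while the direction did not change.

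The difference in response was positive for 34 of 41 members, where 47.6% of all genes were positive, and for 13 of 13 peroxins. Among the other peroxisomal genes described below it was positive for 31 of 43. Of the 31 members that rose in both genotypes 27 (87.1%) rose more in D1D2KO cells. So did 73.9% of all 2199 genes that rose in both and 78.8% of the 1767 above the median signal. Of the other peroxisomal genes above that signal 13 of 14 (92.9%) did. The median difference in response was 0.20 for the members and -0.01 for all genes. For 24 members (58.5%) the D1D2KO mean was below WT before and above WT after differentiation, where 2792 of all 19938 genes and 17.7% of genes above the median signal did so. The same held for 13 of 23 other peroxisomal genes above the median signal (56.5%). Next in size after Hsd17b4 were Pex10 (0.50), Ephx2 (0.49), Scp2 (0.45) and Pex3 (0.42), none of which passed (limma, adjusted p = 0.167, 0.137, 0.163 and 0.124). Some passed in single alternatives. Ephx2 did so after quantile normalization, and Pex3 among genes above the median signal and with array weights. Scp2 did so with array weights and without D1D2KO differentiated replicate 3. So did Pex13 among genes above the median signal and Gnpat without that replicate. Adipocyte markers rose further (3 of 7 called) and fibroblast markers fell further (1 of 9 called) in D1D2KO cells, and their part in this was not tested.

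Other peroxisomal genes, a list of 51 with 43 measured, were set beside the members. In WT 22 rose and 3 fell on differentiation (median 0.32), and in D1D2KO cells 23 rose and 1 fell (median 0.40). Among all genes 14.7% rose in WT and 15.4% in D1D2KO cells. Of the 23 on the list that lie above the median signal, 14 and 15 rose, where 19.9% and 22.8% of all genes above it did. The largest called changes in WT were those of the acyl-CoA thioesterase Acot4 (1.73), the glutathione transferase Gstk1 (1.69), the dehydrogenase-like Hsdl2 (1.63) and the membrane protein Tmem135 (1.49). In D1D2KO cells they were those of Hsdl2 (2.07), Tmem135 (2.04), Gstk1 (2.02) and the acyl-CoA dehydrogenase Acad11 (1.61). The brightest uncalled genes were the fission genes Dnm1l and Fis1 in WT (-0.13 and -0.03), and Dnm1l and Isoc1 in D1D2KO cells (0.09 and -0.11). Acot3, Acot4, Acot5 and Acot6 are close copies, so their separate values are uncertain.

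Between the genotypes 3 of the 43 were higher and 1 lower in undifferentiated D1D2KO cells, namely Slc27a2 (0.56), Agxt (0.36), Acot12 (0.32) and Gstk1 (-0.43). Each of these 4 calls ended without some 1 undifferentiated sample. Those of Agxt and Acot12 also ended after quantile normalization, and that of Agxt with array centring or trended robust eBayes. Slc27a2 and Agxt lay near or under the arrays' lower quartiles, and Acot12 lay near them in undifferentiated WT samples (4.20 to 4.29). After differentiation 6 were higher and 0 lower, the largest being Ddo (0.57), Acot5 (0.53), Tmem135 (0.43) and Slc27a2 (0.40). Tmem135 is the bright one of these, at 8.64, 8.63 and 8.97 in WT and 9.22, 9.24 and 9.06 in D1D2KO samples (SE 0.10; limma, adjusted p = 0.00896). Of the 4, Tmem135 passed in every alternative fit. The Ddo call ended without any of 9 samples (limma, adjusted p from 0.0501 to 0.151), with the replicate block (0.0554), array centring (0.0621), quantile normalization (0.110) and only the 2 groups compared (0.0976), and 1 D1D2KO sample (4.26) lay within the WT range (4.11 to 4.47). That of Acot5 ended without WT differentiated replicate 2, where 1 of the 6 calls was left. That of Slc27a2 ended without WT differentiated replicate 2 or 3 or D1D2KO differentiated replicate 1 or 3, and with array centring, quantile normalization, only the 2 groups or array weights. With centring 2 of the 43 were higher. Among these 43 genes 0 passed the test of the difference in response.

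Regulators of peroxisomal genes were read on the same arrays. Pparg, the receptor that drives fat cell formation, rose by 3.97 in WT (15.7-fold) and 4.10 in D1D2KO cells (17.2-fold), with no genotype difference passing in either state. Ppara, the receptor best known for inducing peroxisomal enzymes, rose by 0.35 in WT (limma, adjusted p = 0.0250) and by 0.76 in D1D2KO cells. The WT call of Ppara ended when undifferentiated replicate 2 or 3, or differentiated replicate 1 or 3, was removed. Ppard rose by 0.67 and 0.61. Of the partner receptors, Rxra differed by 0.15 in WT without passing and rose by 0.30 in D1D2KO cells, and Rxrb, at 0.05 and 0.00, did not pass.

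The coactivator Ppargc1b read 5.38, 5.46 and 5.72 before and 6.45, 5.95 and 6.42 after in WT, and 5.60, 5.51 and 5.51 before and 7.17, 7.04 and 6.96 after in D1D2KO cells. The genotypes overlapped before and were apart after differentiation, by 0.78 (SE 0.12; limma, adjusted p = 0.000579). Its relative Ppargc1a rose by 0.93 (WT) and 1.56 (D1D2KO) and was higher by 0.62 in differentiated D1D2KO cells (limma, adjusted p = 0.00560). Ppara was also higher there, by 0.53 (limma, adjusted p = 0.00717). The relation of these levels to those of the members was not tested.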

How the data were processed

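The deposited value table gave log2 array signals per probe set, made by the authors; the log base is inferred from the values, and how the scans were summarised and normalized is not given in the sources used here. Gene names came from the platform annotation. Of 35556 probe sets 21789 had 1 gene, and for 999 genes with several the brightest was kept, leaving 19938 genes. All 41 member identifiers were found in the RefSeq table (GRCm38.p6), with 0 symbols changed.

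All 12 samples entered 1 model with 4 group means in limma 3.58.1 (R 4.3.3), with 5 contrasts, two-sided; the call threshold was an adjusted p (Benjamini-Hochberg, over all genes) below 0.05. The script was tested on simulated data of 19938 genes, where 100 were changed by 0.5 log2, 100 by 1 and the rest not at all. Of the changes of 0.5, 74% were recovered for WT and 66% for D1D2KO differentiation. Between genotypes 58% were recovered in undifferentiated and 74% in differentiated cells, and for the difference in response 24%. Many more genes were called in the real data, both on differentiation and between genotypes (1600 in undifferentiated and 2726 in differentiated cells). The simulated arrays also had no shifts in array level. Recovery in the real data may therefore not be the same.

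The labels do not say whether a replicate number marks a shared embryo or culture. Only between undifferentiated and differentiated D1D2KO cells did all 3 same-number correlations of deviations exceed 0.1 (0.101 to 0.176, against -0.147 to 0.0522 for other pairs). Samples with different numbers reached 0.148 between the WT states and 0.220 between the differentiated genotypes. These small correlations therefore do not establish a pairing, and the replicate block served only as an alternative.

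The members, gene lists and tests were chosen with earlier results of these data known. Every member is accounted for, with values by sample for the largest called changes of each role and for calls between genotypes. Of other peroxisomal genes the text names, per contrast, at most 4 called genes, by size of change, and at most 2 uncalled, by signal. All 7 regulators are named. The markers were Adipoq, Plin1, Fabp4, Cidec, Lipe, Retn and Lep for adipocytes and Col1a1, Col1a2, Col3a1, Dcn, Lum, Pdgfra, Pdgfrb, Thy1 and Fap for fibroblasts; macrophage, hepatocyte and brown adipocyte lists were also read. Alternatives were array centring, quantile normalization, bright genes (above the median signal), averaged probe sets, only the 2 groups compared, trended robust eBayes, array weights, the replicate block and leaving out each sample.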

Additional observations from a re-analysis of the deposited data

Results flagged for a closer look

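Among the members, other peroxisomal genes, regulators and targeted genes, 3 passed the limma test of the difference between the genotypes' differentiation responses. Of all 19938 genes 0.747% passed in the positive and 0.712% in the negative direction, some cell type markers among them. Hsd17b4, the peroxisomal D-bifunctional enzyme, rose by 0.52 more in D1D2KO than in WT cells, a call that ended without any of 10 samples. Ppargc1b, a coactivator, rose by 0.76 more (SE 0.17; limma, adjusted p = 0.0377), and that call ended without WT undifferentiated replicate 2 or 3, WT differentiated replicate 2, any of the 3 D1D2KO undifferentiated replicates, or D1D2KO differentiated replicate 1 or 2. Dgat2, a targeted gene, had a difference of -1.20 (limma, adjusted p = 0.00271), with 8.37, 8.62 and 8.66 in differentiated D1D2KO and 10.28, 9.86 and 10.53 in differentiated WT samples.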

How the results depend on the processing

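With each sample left out in turn, 30 to 33 members rose in WT and 31 to 34 in D1D2KO differentiation, and 2 fell in each. Between genotypes 0 rose and 0 to 1 fell before differentiation, and 1 to 4 rose and 0 to 1 fell after it. For the difference in response 0 to 3 were positive and 0 negative. Among the other alternatives, counts of members higher in differentiated D1D2KO cells were 1 with centring and 1 with only the 2 groups compared. Counts of members lower there were 0 after quantile normalization, 2 among genes above the median signal (38 members tested), 0 with only the 2 groups and 0 with array weights. Members lower before differentiation numbered 3 with only the 2 groups and 4 with array weights. Members with a more positive response numbered 2 after quantile normalization, 3 among genes above the median signal and 3 with array weights. Counts of members lower and higher in all undifferentiated D1D2KO samples, compared after the data were seen, were 26 and 0 with centring and 11 and 1 after quantile normalization, against 20 and 0. The causes of these shifts were not tested. No called difference of a member, other peroxisomal gene or regulator changed sign under any alternative run. With the replicate block 31 and 33 members rose in WT and D1D2KO differentiation, and no member's call changed, while those of 3 other peroxisomal genes ended (Acot12 and Hao1 in WT differentiation and Ddo between differentiated genotypes). Small differences in response are limited by the number of arrays.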
